A study of Mus musculus with 18 samples.

Results

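The comparison here is between knees examined 1 day after rupture of the anterior cruciate ligament (ACL) and knees of mice that were not injured. It comprised 9 of the 18 RNA-seq libraries of the series, namely the 3 labelled day_1_right (the injured right knee) and the 6 labelled day_7_naive. All came from cartilage of the femoral condyles of male C57Bl/6J mice aged 12 weeks. A single load of 12 N through the flexed right knee ruptured the ligament under isoflurane, with buprenorphine for analgesia. The 3 left knees of day 1 mice (contralateral) and the 3 injured knees of day 7 are given beside the comparison where they help to read it.

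Several features limit these groups as a model. Each library is a pool of cartilage. The methods give 6 mice for day 1 and 6 naive mice, with left and right knees pooled apart. The 6 naive libraries can therefore come from knees of the same animals. The series text gives 4 mice to a pool. The study's supplement gives pools of 4 mice for day 7, where cartilage was partly lost, so that number may not hold for the groups compared here. The labels do not tie libraries to animals. The p-values therefore measure the spread between pools, and they are too small where pools share animals. The naive label names day 7, and the handling of naive mice is not given in the sources used here, so injury cannot be told apart from day of collection, anaesthesia or analgesia in this comparison. The labels give the cell type as chondrocyte. The chondrocyte markers were detected in every library, with Col2a1, the main cartilage collagen, at 2231 to 5053 CPM (estimated counts scaled to a common library size). Markers of marrow, bone and muscle were abundant too, with Hbb-bs, a haemoglobin gene of red cell precursors, at 7072 to 15999.7 CPM. In such a mixture, fewer cells of a type and less RNA per cell cannot be told apart.

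The 9 libraries held 16074762 to 29407822 estimated counts. In 2 of them, injured replicate 2 and naive replicate 5, inflammatory genes were high, and both lay at the same end of the first principal component of the 9 libraries, at 29.9 and 33.4, with the other 7 libraries between -24.8 and 10.04. This component held 32.6% of the variance. The injured libraries had a mean position of -1.42 ± 28.2 (SD, n = 3) and the naive libraries 0.708 ± 18.3 (SD, n = 6), and the groups did not separate by a 2-sided exact permutation test over 84 splits (p = 0.905). On the second component, with 18.7% of the variance, the p was 0.143. The smallest p that this design allows is 0.0119. By the same test, the p on the first component was 0.143 without injured replicate 2. On the second component it was 0.0536 without naive replicate 1 and 0.0714 without injured replicate 1. Injured replicate 3 stood apart in another way, with 9.999% of its counts on transcripts of up to 600 bases against 14.2% to 19.7% in the other 8. Where a result below moved strongly without one of these libraries, that value is given too.

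Articular cartilage is an avascular tissue in which chondrocytes maintain a matrix of type II collagen and aggrecan. Joint injury is known to bring an early phase of cytokine and stress signalling, followed by matrix breakdown and attempts at repair by growth factor pathways such as TGF-beta, BMP and Wnt. The question for day 1 is which of these programmes is already visible in the RNA of the cartilage.

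edgeR called no gene at day 1. Of 21129 genes tested by edgeR's quasi-likelihood test, 0 (0%) passed a false discovery rate (FDR) of 0.05 together with a 1.5-fold change in either direction. An FDR of 0.165 was the smallest reached. Before adjustment, 387 genes (1.83%) were higher and 572 (2.71%) were lower in the injured knees at the unadjusted limit of 0.05, 959 (4.54%) in all. All 3 injured libraries lay above all 6 naive libraries for 222 genes (1.05%) and below them for 213 (1.01%). DESeq2 called 0 genes higher and 15 lower under the same limits, limma-voom called none, and limma-voom with quality weights called 1 lower, Rpl10-ps3. DESeq2 adjusted its p-values over 1467 genes only, as its own filter set the other 19662 aside.

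The intervals show how large a change the data allow. The median half-width of the 95% interval of a log2 fold change was 0.36, which is 1.28-fold. For 12068 genes (57.1%) the whole interval lay within 1.5-fold of no change, and for 17020 (80.6%) within 2-fold. Among the 9810 genes with a mean of 10 CPM or more, 89.0% had an interval within 1.5-fold, against 1.42% of the 4945 genes under 1 CPM. The median log2 fold change over all genes was 0.00, and the plot of fold changes shows the spread around it.

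**Figure D1:**
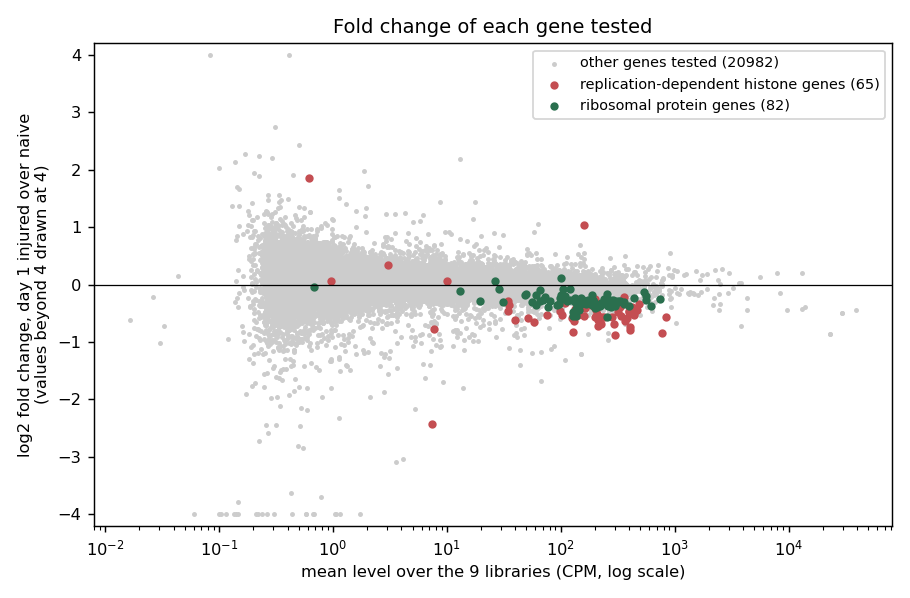
Log2 fold change of each of the 21129 genes tested (day 1 injured over naive) against its mean level over the 9 libraries in CPM on a log axis; values beyond 4 are drawn at 4. Of the ribosomal protein genes (green) 80 of 82, and of the histone genes (red) 60 of 65, lie below the line of no change, with medians of -0.29 and -0.50.

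The genes that the study names for its injury response were close to naive levels at day 1. Of the 11, none had an unadjusted p under 0.05, and their log2 fold changes ran from -0.03 for Sox9 to 0.50 for Gdf5, with a median of 0.12. Gdf5, a BMP family ligand of joint formation, was at 0.360, 0.551 and 0.923 CPM in the injured libraries and at 0.122 to 0.570 CPM in the naive libraries, with a median of 0.464. The groups overlapped, and at these low levels the 95% interval of its log2 fold change was -0.32 to 1.33. The value was 0.11 without injured replicate 3 and 0.79 without injured replicate 1. Matn2, a matrilin of the pericellular matrix, had a log2 fold change of 0.08 with an interval of -0.17 to 0.34, and Fyn, a Src family kinase, 0.02 with an interval of -0.18 to 0.23. For these 2 genes the interval lay within 1.5-fold of no change. Postn, which encodes the matricellular protein periostin, was at 115, 211 and 150 CPM in injured knees and at 83.99 to 312 CPM in naive knees. Naive replicate 5 was above every injured library, and the interval was -0.83 to 1.02.

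These genes read differently at day 7, although that comparison shares the naive libraries. Postn had a log2 fold change of 4.29 (SE 0.43) over naive at day 7, against 0.10 (SE 0.43) at day 1. Matn2 was at 3.01 (SE 0.11) against 0.08 (SE 0.12), and Gdf5 at 3.81 (SE 0.32) against 0.50 (SE 0.39). The whole comparison of day 7 with naive called 2207 genes higher (10.4%) and 1291 lower (6.11%) in the same fit. The test of the difference between the injured libraries of both days passed an FDR of 0.05 for each of the 11 genes. The study named them from their response at day 7 in these data, so this test gives no independent support for a difference.

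Immediate early genes are transcription factors induced within minutes to hours of a stimulus. Of 28 members tested, 0 passed an unadjusted p of 0.05, and the median log2 fold change was 0.11. Among all genes 4.54% passed, so 0 in a list of this size is close to the background share. Fosl2, an AP-1 subunit, was at 173 ± 20.2 CPM (SD, n = 3) in injured and 148 ± 12.3 CPM (SD, n = 6) in naive knees, with a log2 fold change of 0.23 (SE 0.13, interval -0.05 to 0.52). Nr4a2, an orphan nuclear receptor, had a log2 fold change of 0.49 (SE 0.30), with 11.4 CPM in injured replicate 2 against 6.45 and 5.92 CPM in the others. It was 0.13 without that library and 0.84 with a transcript length offset.

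The acute inflammation list, of cytokines, chemokines and their early targets, also had 0 of 28 members past an unadjusted p of 0.05, yet several of its members varied widely within each group. Cxcl1, a neutrophil chemokine, was at 0.590, 10.3 and 0.252 CPM in injured replicates 1 to 3. In the 6 naive libraries it was at 0.300, 0.470, 0.175, 0.249, 4.16 and 0.325 CPM. Injured replicate 2 and naive replicate 5 were thus both far above the rest of their groups, and the groups overlapped. The same 2 libraries were high for Ccl2, a monocyte chemokine, at 15.4 and 18.4 CPM, with the other 7 libraries at 0.378 to 3.18 CPM. Timp1, an inhibitor of metalloproteinases, was at 89.5 and 96.5 CPM in the 2 libraries and at 5.99 to 15.6 CPM in the others.

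Among the contralateral knees of day 1, replicate 3 had the same high values. There Cxcl1 was at 5.92 CPM and Ccl2 at 13.6 CPM, against 0.181 and 0.337, and 0.326 and 1.01 CPM, in replicates 1 and 2. Across 11 such genes, which were picked after their values were seen, replicate 2 was the highest injured library for 11, replicate 5 the highest naive library for 11 and replicate 3 the highest contralateral library for 11. Over the whole list of 28, the counts were 22 for injured replicate 2 and 19 for naive replicate 5. High levels of the 11 picked genes were therefore present in 1 library each of the injured, naive and contralateral knees. For the contralateral knees this rests on the picked genes alone. Prg4, the lubricin gene of superficial cartilage and synovium, followed the same libraries, at 1811 CPM in injured replicate 2 and 1445 CPM in naive replicate 5, with 379 to 905 CPM in the others. The 12 markers of synovial fibroblasts summed to 2199 and 1869 CPM in the 2 libraries and to 839 to 1522 CPM in the others. Prg4 is itself one of these markers and made up most of both sums. The other 11 summed to 388 and 423 CPM in the 2 libraries, below the 460 to 680 CPM of the others.

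**Figure D2:**
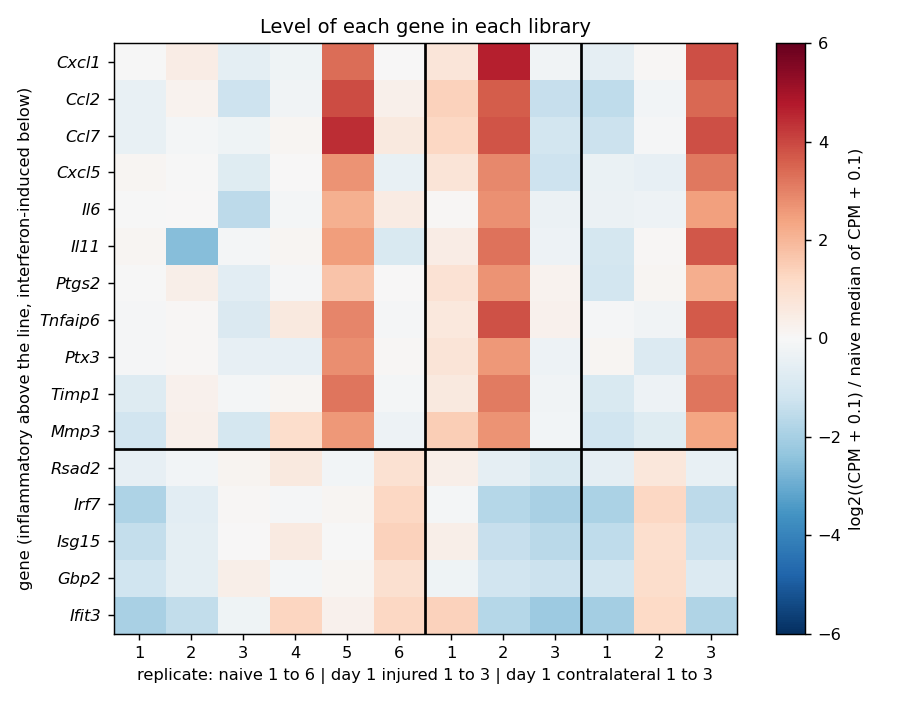
Level of 11 inflammatory genes (above the line) and 5 interferon-induced genes (below it) in each naive, day 1 injured and day 1 contralateral library, as the log2 ratio of CPM + 0.1 to the naive median of the same gene. The inflammatory genes are high (red) in naive replicate 5, injured replicate 2 and contralateral replicate 3. The interferon-induced genes are low (blue) in injured replicates 2 and 3, naive replicate 1 and contralateral replicates 1 and 3. Naive replicate 2 is also below the naive median for Irf7, Gbp2 and Rsad2, though less far than naive replicate 1.

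The group difference of these genes turned on single libraries. Cxcl1 had a log2 fold change of 1.98 with a 95% interval of -0.49 to 4.45. This became -1.12 without injured replicate 2 and 0.58 without injured replicate 2 and naive replicate 5. Ptgs2, the inducible prostaglandin synthase, was at 4.06, 14.4 and 2.52 CPM in injured knees and at 1.36 to 7.31 CPM in naive knees, and its log2 fold change was 1.25 (SE 0.67, interval -0.17 to 2.67). It was 0.17 without injured replicate 2, 1.77 without naive replicate 5 and 0.69 without both. The interleukin gene Il6 had a log2 fold change of 1.04, the hyaluronan-binding Tnfaip6 1.44 and the stromelysin gene Mmp3 0.87, each with an interval that held 0. Without injured replicate 2 and naive replicate 5 they were 0.012, 0.49 and 0.89. The value for Mmp3 was 0.0029 without injured replicate 2 alone and 1.76 without naive replicate 5 alone. The median of the list moved from 0.32 to -0.13 without injured replicate 2.

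The interferon response list divided the libraries along other lines. Its 18 members, which encode antiviral proteins and their regulators, all had log2 fold changes below 0, with a median of -0.60, but 0 passed an unadjusted p of 0.05. The median was -1.33 without injured replicate 1 and -0.21 by limma-voom with quality weights. Irf7, the regulator of type I interferon genes, was at 86.4, 28.6 and 24.4 CPM in injured knees. In naive knees it was at 26.6, 60.9, 100.3, 90.2, 102 and 227 CPM. Injured replicates 2 and 3 and naive replicate 1 were low, and injured replicate 1 lay among the other naive libraries. The log2 fold change was -1.12 with an interval of -2.62 to 0.37. It was -1.93 without injured replicate 1 and -0.60 with quality weights, and for Rsad2 these values were -0.93 and -0.21. Rsad2, the antiviral protein viperin, had a log2 fold change of -0.48 (SE 0.34) and the guanylate-binding Gbp2 -0.91 (SE 0.49). Over the alternatives the value for Gbp2 ran from -1.29 to -0.58. The contralateral libraries spanned a similar range, with Irf7 at 25.8, 225 and 31.7 CPM.

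Of 24 cartilage matrix genes, 0 passed an unadjusted p of 0.05, against 4.54% of all genes. Their median log2 fold change was -0.01. Col2a1 was at 3594, 2231 and 3617 CPM in injured knees and at 2632 to 5053 CPM in naive knees, a log2 fold change of -0.06 with an interval of -0.49 to 0.36. Of the 33 genes of repair matrix (fibrillar collagens, their cross-linking enzymes and matricellular proteins), 0 passed, with a median log2 fold change of 0.18. In the same fit, 16 of the 33 were higher in injured than in contralateral knees of day 1 at an unadjusted p of 0.05, against 3.31% of all genes, and 15 were lower in contralateral than in naive knees, against 1.67%. Of the 24 cartilage matrix genes these numbers were 5 and 8. Col1a1, the fibrillar collagen of bone and scar, was at 12796, 10405 and 20240.5 CPM in injured knees and at 8766 to 16944 CPM in naive knees. The groups overlapped, with a log2 fold change of 0.20 (SE 0.26, interval -0.35 to 0.75). At day 7 all 33 of these repair matrix genes were called higher, against 10.4% of all genes. Col1a1 then had a log2 fold change of 2.05 (SE 0.25). The lists were chosen with earlier results of these data known, so these counts give no independent support for a change.

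Adamts9, a secreted metalloproteinase that cleaves aggrecan and versican, was at 44.1, 42.5 and 47.7 CPM in injured knees and at 28.6 to 39.1 CPM in naive knees, with no overlap. Its log2 fold change was 0.39 (SE 0.14) with an edgeR FDR of 0.987, and it was the 1 of 18 ADAMTS genes (5.56%) higher at an unadjusted p of 0.05, against 1.83% of all genes. Mmp14, a membrane collagenase, had no overlap either, at 116 to 128 CPM against 71.2 to 114 CPM, and its log2 fold change was 0.27 (SE 0.15, interval -0.06 to 0.60). The collagenase gene Mmp13 was at 295, 275 and 329 CPM within a naive range of 180 to 463 CPM. Of 16 MMP genes, 0 passed an unadjusted p of 0.05.

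Pth1r, the receptor for parathyroid hormone and its related peptide, was at 63.6, 55.3 and 65.0 CPM in injured knees and at 43.3 to 68.0 CPM in naive knees. Naive replicate 3 was the single naive library above 50.9 CPM. The log2 fold change was 0.27 (SE 0.11), and that of Ibsp, the bone sialoprotein gene, was 0.26 (SE 0.12). They were the 2 of 14 genes of hypertrophy and mineralization (14.3%) that were higher at an unadjusted p of 0.05, with 0 lower, against 1.83% higher and 2.71% lower among all genes. Of 12 osteoblast and osteocyte markers, 11 had a log2 fold change above 0, with a median of 0.19, and 1 was higher at that p (8.33%), Ibsp itself. Among all 21129 genes, 10562 were above 0. This lean was not particular to bone, as 18 of 19 mechanosensing genes and 11 of 12 synovial fibroblast markers were above 0 too. Of 11 chondrocyte markers, 2 were. In the TGF-beta and BMP list of 34, the ligand gene Bmp7 (log2 fold change 0.41) and the receptor gene Tgfbr1 (0.16) were higher, and the ligand gene Tgfb1 (-0.18) was lower, at that p. In the Wnt list of 33, the receptor gene Fzd6 (0.32) and the transcription factor gene Tcf7 (0.34) were higher and 0 were lower. Each of these genes had an FDR of 0.987. With a transcript length offset the log2 fold change of Fzd6 was 0.072. Without injured replicate 3 it was 0.17 for Fzd6, 0.22 for Tcf7 and 0.26 for Bmp7.

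Among metabolic and stress genes, Pdk4, a kinase that holds pyruvate back from oxidation, was at 96.5, 61.9 and 130 CPM in injured knees. The naive libraries held 24.7, 60.8, 28.8, 100.3, 30.7 and 31.1 CPM. Naive replicate 4 lay within the injured range and naive replicate 2 just under it. The log2 fold change was 1.06 with an interval of 0.20 to 1.92. Cat, which encodes catalase, was below all naive libraries in all 3 injured ones, at 120, 117 and 118 CPM against 121 to 144 CPM, and its log2 fold change was -0.20 (SE 0.07). Clock, a circadian regulator, was higher by 0.24 on the log2 scale and Bnip3l, a mitophagy receptor, lower by 0.23 (log2 fold change -0.23) at an unadjusted p of 0.05. Without injured replicate 3 the value for Bnip3l was -0.14. In the lists of heat shock, unfolded protein response, complement, mechanosensing and pain genes, 0 members passed. The complement gene C3, for example, had a log2 fold change of -0.13 (SE 0.18).

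**Figure D3:**
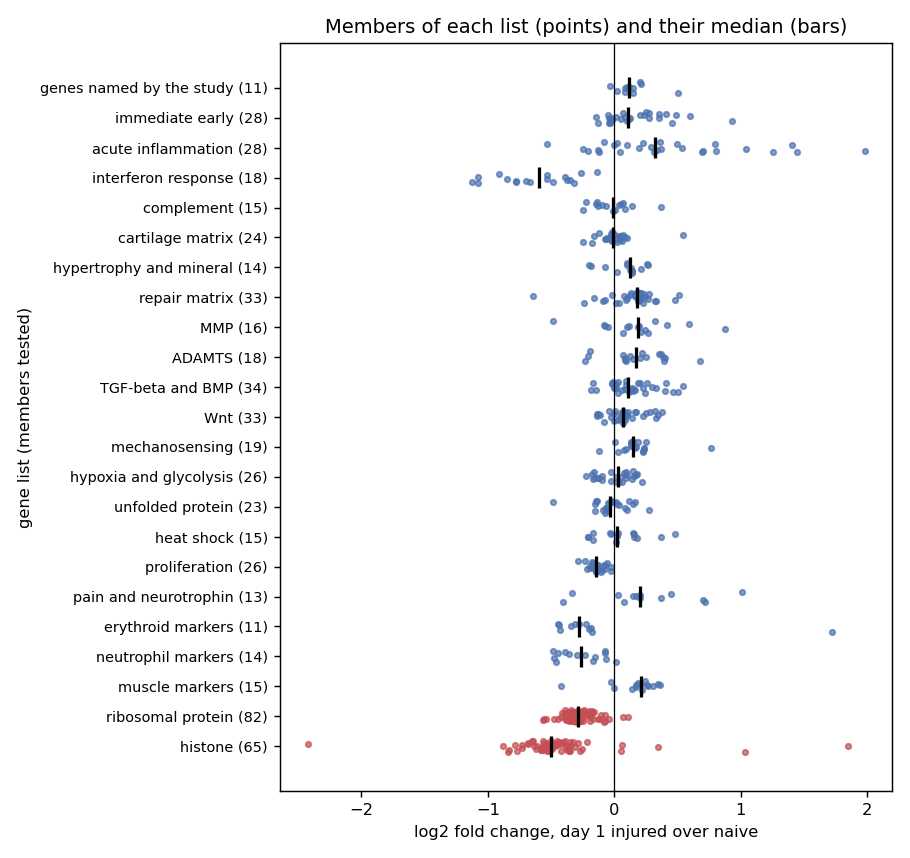
Log2 fold change (day 1 injured over naive) of each tested member of 23 gene lists (points), with the median of each list as a bar and the number of members in brackets. The acute inflammation and interferon lists spread widely around medians of 0.32 and -0.60, while the ribosomal protein and histone lists (red) sit below 0 as a group.

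Cytosolic ribosomal protein genes, replication-dependent histone genes and small non-coding RNA genes held the largest numbers of lower genes among the lists. Ribosomal proteins are the structural subunits of the ribosome, replication-dependent histones package new DNA in S phase, and the small RNAs include those that guide splicing and RNA modification. Of 82 ribosomal protein genes tested, 55 were lower (67.1%) and 0 higher at an unadjusted p of 0.05, against 2.71% and 1.83% of all genes. Their median log2 fold change was -0.29, and 17 (20.7%) had all injured libraries below all naive ones, against 1.01% of all genes. Of 65 histone genes, 50 were lower (76.9%) and 1 higher, with a median of -0.50. Of 166 small non-coding RNA genes that passed the filter, out of 2138 in the annotation, 42 were lower (25.3%) and 1 higher, with a median of -0.47. A mean under 1 CPM was found for 86 of the 166. Summed over the 166 genes, the level was 67076, 54773 and 31420 CPM in injured knees. In naive knees it was 54250.5 to 88906 CPM, so the groups overlapped. The most abundant member, Rn7s1, had a mean of 29431 CPM. Members of each kind share sequence or regulation and are not independent of one another, and edgeR called none of them. Of the 15 genes that DESeq2 called lower, 9 were histone, 0 ribosomal protein and 3 small non-coding RNA genes. Without the fold limit, 37 genes were lower at its FDR of 0.05. Of these, 15 were histone, 13 ribosomal protein and 3 small non-coding RNA genes. The 3 small non-coding RNA genes include Rnu1a1 and Gm23804, copies with identical sequence and equal counts. DESeq2 adjusted its p-values over 1467 genes only, and the share of each kind among those was not counted.

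Rps20, of the small ribosomal subunit, was at 107, 106 and 90.0 CPM in injured knees and at 116, 153, 128, 133, 154 and 158 CPM in naive knees. The groups did not overlap, and the log2 fold change was -0.48 (SE 0.10, edgeR FDR = 0.900). By DESeq2 the FDR of Rps20 was 0.00403, with a change under 1.5-fold. Rpl36, of the large subunit, was at 64.3, 67.0 and 59.1 CPM in injured knees and at 74.8 to 92.4 CPM in naive knees, a log2 fold change of -0.39 (SE 0.09). Rpl10a, also of the large subunit, was at 110, 113 and 86.9 CPM against 128 to 177 CPM, a log2 fold change of -0.55 (SE 0.13), or -0.32 with pseudogene counts added. Summed over the 82 genes, the level was 14701, 15184 and 11754 CPM in injured knees and 14718 to 18475 CPM in naive knees. Naive replicate 1 was the naive library within the injured range.

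The gene of lowest p was Rpl10-ps3, annotated as protein-coding at chr9:50344201-50344968 (GRCm38, minus strand). It was at 187, 213 and 176 CPM in injured knees and at 251, 302, 286, 284, 282 and 302 CPM in naive knees. The contralateral knees of day 1, at 202, 239 and 240 CPM, were also below all naive libraries (log2 fold change -0.33, SE 0.09). The log2 fold change was -0.57 (SE 0.09) with an edgeR FDR of 0.165. By DESeq2 the FDR of Rpl10-ps3 was 2.07e-07, with a change under 1.5-fold. Rpl10-ps3 carries the coding sequence of Rpl10 (chrX:74270812-74273135, plus strand) with 645 of 645 bases identical in the GENCODE annotation. The first 30 coding bases of both are shown because reads from them cannot be assigned to one gene; no base is in capitals, as none differs.
Rpl10: atgggccgccgccccgcccggtgttaccgg
Rpl10-ps3: atgggccgccgccccgcccggtgttaccgg
Rpl10 itself had a log2 fold change of 0.11 (SE 0.19), in the opposite direction, and its groups overlapped. With the counts of 299 numbered pseudogenes added to their ribosomal protein genes, an alternative chosen after the data were seen, Rpl10 had a log2 fold change of -0.28. The value of Rpl10-ps3 alone is therefore uncertain.

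The histone H4 gene Hist2h4, at chr3:96261682-96263311 (GRCm38, minus strand), was at 214, 233 and 133 CPM in injured knees and at 287, 356, 457, 311, 340 and 382 CPM in naive knees. There was no overlap, and the log2 fold change was -0.88 (SE 0.17, edgeR FDR = 0.837). DESeq2 called it lower (FDR = 0.000317). Hist1h4h, Hist1h4c and Hist1h4f, further H4 genes, had log2 fold changes of -0.73 (SE 0.19), -0.73 (SE 0.19) and -0.64 (SE 0.17). The H4 genes share most of their 312 coding bases, with 274 to 300 identical between pairs of these 4, so reads can be split between copies. Their first 30 coding bases are shown with the positions that differ among the 4 in capitals.
Hist2h4: atgtctggCAgAggAaagggTggAaaGggT
Hist1h4h: atgtctggTCgTggCaagggCggTaaAggT
Hist1h4c: atgtctggACgTggTaagggTggTaaAggC
Hist1h4f: atgtctggTCgTggTaagggAggAaaAggC
Hist1h2ap, an H2A gene, had a log2 fold change of -0.79 (SE 0.21), again with no overlap. DESeq2 called Hist1h4h, Hist1h4c, Hist1h4f and Hist1h2ap lower too, at FDRs of 0.0146, 0.0199, 0.0199 and 0.0184. Summed over the 65 histone genes, the level was 12382, 13681 and 8769 CPM in injured knees and 13599 to 20148 CPM in naive knees, and naive replicate 1 was within the injured range. Of 26 proliferation genes, 3 were lower (11.5%) and 0 higher at an unadjusted p of 0.05, against 2.71% and 1.83% of all genes. Among the 3 were the mitotic cyclin gene Ccnb2 (log2 fold change -0.29) and Cdc20 (-0.23), an activator of the anaphase-promoting complex. All 26 had a log2 fold change below 0, against 10566 of all 21129 genes, with a median of -0.15. For all 26 the interval lay within 1.5-fold of no change. Without injured replicate 3 the value for Cdc20 was -0.14, and that for Hist1h4f -0.40.

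Among the small RNAs, U1 is the spliceosomal RNA whose 5′ end pairs with 5′ splice sites. Rnu1a1 (chr11:87422867-87423030, plus strand) and Gm23804 (chr12:54714218-54714381, plus strand) are 2 copies of it with 164 of 164 bases identical, and their estimated counts were equal in each of the 9 libraries. Their first 30 bases are shown as DNA with the part that pairs with splice sites in capitals.
Rnu1a1: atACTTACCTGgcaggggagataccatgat
Gm23804: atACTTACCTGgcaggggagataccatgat
Each copy was at 104, 88.7 and 49.9 CPM in injured knees and at 195, 182, 147, 241, 128 and 234 CPM in naive knees, with a log2 fold change of -1.21 (SE 0.30, edgeR FDR = 0.987). DESeq2 called both copies lower (FDR = 0.00512). Rmrp, the RNA of RNase MRP, which the annotation classes as a long non-coding RNA, was at 27.6, 31.5 and 22.2 CPM against 43.2 to 162 CPM, a log2 fold change of -1.69 (SE 0.39). In contralateral knees Rmrp was at 33.2, 37.3 and 73.8 CPM, so that replicates 1 and 2 were also below all naive libraries. The log2 fold change was -0.86 (SE 0.37) for contralateral over naive and -0.83 (SE 0.42) for injured over contralateral knees. Rpph1, the RNA of RNase P, was at 3405, 2994 and 1564 CPM against 3453 to 5625 CPM, a log2 fold change of -0.72 (SE 0.24), or -0.45 without injured replicate 3. The snoRNA gene Snora64 had 1, 1 and 0 counts in injured libraries and 6 to 42 counts in naive libraries (edgeR FDR = 0.165), too few to give a fold change.

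**Figure D4:**
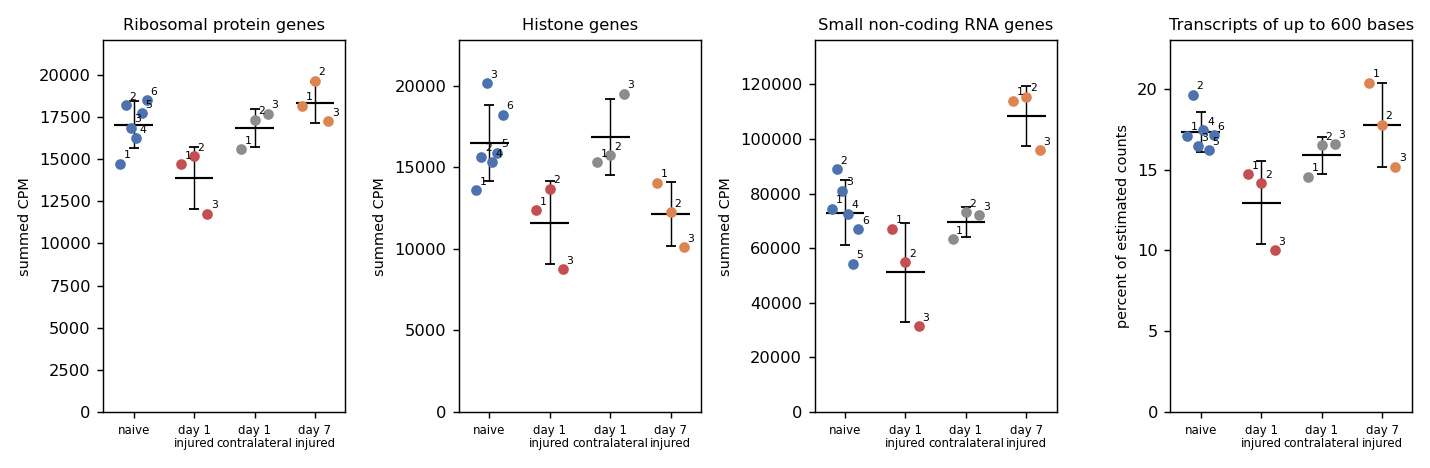
Summed CPM of the 82 ribosomal protein, 65 histone and 166 small non-coding RNA genes, and the percent of estimated counts on transcripts of up to 600 bases, in each naive, day 1 injured, day 1 contralateral and day 7 injured library (points, numbered by replicate), with the group mean and SD. Injured replicate 3 is the lowest of the 9 libraries in all 4 panels, and for the share of counts on short transcripts the 3 injured libraries lie below all 6 naive ones.

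The numbers of lower genes depended on injured replicate 3, in these lists and over all genes. Without it, 19 ribosomal protein (23.2%), 21 histone (32.3%) and 15 small non-coding RNA genes (8.15%) were lower at an unadjusted p of 0.05, against 1.27% of all genes. Without injured replicate 2 and naive replicate 5 the numbers were 52 (63.4%), 57 (87.7%) and 46 (26.4%), against 3.97% of all genes. In a fit of all 18 libraries they were 29 (35.4%), 32 (49.2%) and 25 (14.5%), against 1.59%. The median log2 fold change was below 0 under all 20 alternatives, including the other scaling, and ran from -0.34 to -0.18 for ribosomal protein genes and from -0.64 to -0.33 for histone genes. For small non-coding RNA genes it ran from -0.65 to -0.08, the latter with no filter on low counts.

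The share of counts on short transcripts was lower in the injured libraries as well. Counts on transcripts of up to 600 bases made up 14.7%, 14.2% and 9.999% of the injured libraries and 17.1%, 19.7%, 16.4%, 17.45%, 16.2% and 17.1% of the naive libraries. In the contralateral libraries they made up 14.6%, 16.5% and 16.6%. The mean fragment length in the files was 177, 184 and 180 bases in injured libraries and 180 to 199 bases in naive libraries. In the contralateral libraries it was 169, 177 and 168 bases. Among protein-coding genes with an effective length of up to 300 bases, 28 of 117 were lower (23.9%), against 22 of 2736 with more than 4000 bases (0.804%). Without the ribosomal protein and histone genes, 3 of 87 genes of up to 300 bases were lower (3.45%), and 29 of 510 genes of 300 to 600 bases (5.69%). The part of transcript length in these results was not tested.

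**Figure D5:**
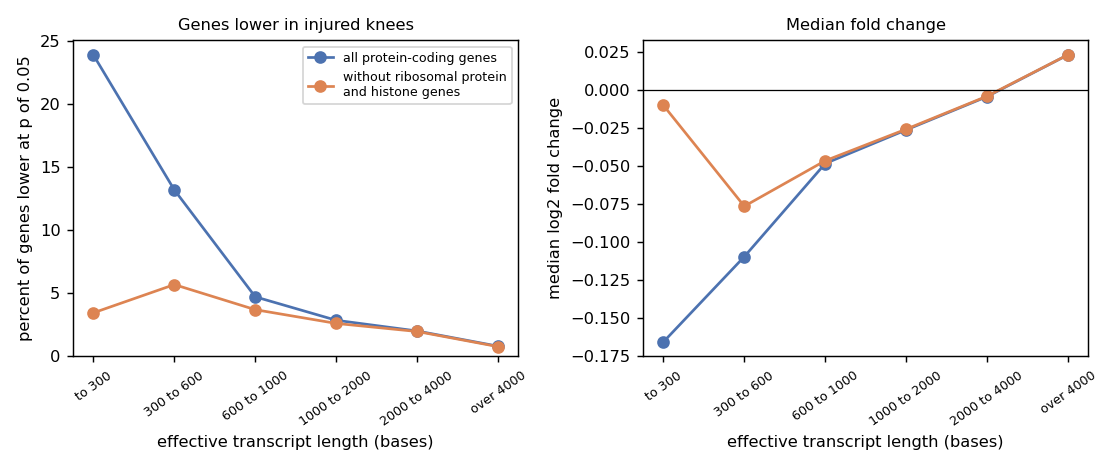
Protein-coding genes by effective transcript length in bases: the percent lower at an unadjusted p of 0.05 (left) and the median log2 fold change of day 1 injured over naive (right), for all such genes and without ribosomal protein and histone genes. The percent lower falls from 23.9% in the shortest class to 0.804% in the longest, and without these genes it is highest at 300 to 600 bases, at 5.69%, with 3.45% in the shortest class and 0.768% in the longest.

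The other comparisons of the same fit show where these lists stood, though they share libraries with the day 1 comparison. Against the contralateral knees of day 1, 44 ribosomal protein, 50 histone and 12 small non-coding RNA genes were lower in the injured knees at an unadjusted p of 0.05, against 3.24% of all genes (3.31% were higher). Between contralateral and naive knees, 0 ribosomal protein, 1 histone and 10 small non-coding RNA genes were lower, against 1.67% of all genes (0.956% were higher). At day 7 over naive, the median log2 fold change was 0.11 for ribosomal protein, -0.48 for histone and -0.06 for small non-coding RNA genes.

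Of 1400 long intergenic non-coding RNA genes, a class added after the data were seen, 53 were higher (3.79%) and 11 lower (0.786%). Among all genes the shares were 1.83% and 2.71%. The class had a median log2 fold change of 0.10. Of its 1400 genes, 866 had a mean under 1 CPM, and the median over all 4945 tested genes under 1 CPM was 0.09. Gm21092, an unprocessed pseudogene, was at 3.64, 4.22 and 4.24 CPM in injured knees and at 1.96 to 2.53 CPM in naive knees, a log2 fold change of 0.83 (SE 0.17, edgeR FDR = 0.837). Cacng2, a subunit of calcium channels and AMPA receptors, was at 1.21, 1.36 and 1.68 CPM against 0.615 to 1.03 CPM, a log2 fold change of 0.88 (SE 0.19). The non-coding RNA genes Lncenc1 and Gm28268 had log2 fold changes of 0.99 (SE 0.22) and 0.41 (SE 0.10). Lncenc1 was at 1.05 to 1.30 CPM in injured, 0.403 to 0.805 CPM in naive and 0.955 to 1.02 CPM in contralateral knees. Its contralateral libraries were thus also above all naive ones. Gm28268 was at 21.99 to 23.03 CPM in injured, 14.3 to 19.7 CPM in naive and 20.6, 20.8 and 16.7 CPM in contralateral knees. Among lower genes outside the lists, Tomm6, a subunit of the mitochondrial import channel with a short transcript, was at 19.5, 18.7 and 18.1 CPM against 21.4 to 26.5 CPM, a log2 fold change of -0.39 (SE 0.09).

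Markers of other cell types varied between pools without a gene being called. Of all genes, 2.71% were lower and 1.83% higher at an unadjusted p of 0.05. Of 11 erythroid markers, 3 were lower (27.3%), among them Hba-a1, a haemoglobin gene (log2 fold change -0.44, SE 0.18). Their sum was 25314, 35306 and 19955 CPM in injured knees and 31852 to 42445 CPM in naive knees, so that injured replicates 1 and 3 were below all naive libraries and replicate 2 was among them. Erythroid precursors divide rapidly, and the sum was low in the injured library where histone genes were lowest; its part in the histone result was not tested. Hbb-bs, the most abundant of these markers, had a log2 fold change of -0.43 with an interval of -0.90 to 0.05. It was -0.20 without injured replicate 3 and -0.75 without injured replicate 2 and naive replicate 5. Of 14 neutrophil markers 1 was lower, and of 10 T and NK cell markers 1 was lower, Gzma, the granzyme A gene, at 1.51, 2.08 and 1.01 CPM against 1.60 to 6.001 CPM. The muscle markers summed to 10720, 4743 and 16886 CPM in injured and to 4306 to 14024 CPM in naive knees, and 0 of 15 passed. Of 11 endothelial markers 1 was higher, Emcn, the endomucin gene, with a log2 fold change of 0.34 (SE 0.15). The 11 chondrocyte markers summed to 5948, 3767 and 6060 CPM in injured knees and to 4293 to 8026 CPM in naive knees, with a median log2 fold change of -0.03.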

How the data were processed

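Per the labels, RNA was made into TruSeq stranded total RNA libraries after ribosomal RNA depletion. The authors quantified transcripts with Kallisto and deposited estimated counts, effective lengths and TPM per transcript for each library. The methods name a mouse annotation (GRCm38) while the submitters' notes list GRCh38, and 135107 of 137436 transcript identifiers (98.31%) matched the mouse GENCODE vM21 annotation. Estimated counts were summed to 49184 genes and rounded; 0.819% to 2.33% of counts had no gene. TPM served to weight transcript lengths. The methods use limma-voom with a term for mouse pool; the labels name no pools, so no such term was fitted. Groups were taken from the treatment label. Fits used edgeR 4.0.16 in R 4.3.3 (TMM, filterByExpr, group means) on 15 libraries, leaving out day 7 contralateral, with Benjamini-Hochberg FDR of at most 0.05 and 1.5-fold for a call. CPM are relative to TMM-scaled library sizes. Intervals come from the standard error of the quasi-likelihood F statistic. Alternatives used limma 3.58.1 and DESeq2 1.42.0. The fit was also run on simulated data, and no result given here rests on that run.

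Members and lists were chosen with earlier results of these data known. Named were the genes in the study's text; in each direction the 10 of lowest p with non-overlapping groups and a mean of at least 1 CPM in the higher group; the most abundant and 2 lowest-p members of each functional list and the most abundant of each marker list; genes called under any alternative; and the lowest-p members of lists with more than double the background share. There were 137 such genes, and 69 of them were followed through the alternatives. The 137 include some chosen after their values were seen (the inflammatory genes other than Cxcl1 and Ptgs2, Mmp13, Rpl10 and Rpph1). All of the 69 are described here except Snorc and Sparc. Some genes are not reported here. Strand settings in counting are not given in the sources used here, and genes with near-identical copies are uncertain.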

Additional observations from a re-analysis of the deposited data

Results flagged for a closer look

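Among the 6 naive libraries, single values stood far from the others for 14 of 84 measures; about 1 in 20 such groups is picked out when nothing differs. Replicate 5 accounted for 8 of them, of which 5 are genes chosen after their values in that library were seen. In that library Cxcl1 was at 4.16 CPM (next highest 0.470), Ccl2 at 18.4 (1.45), Il6 at 2.08 (0.615), Ptgs2 at 7.31 (2.82), Tnfaip6 at 20.1 (3.99), Timp1 at 96.5 (12.1) and Mmp3 at 27.9 (9.61) CPM, and Cat was lowest at 121 CPM (next 135).

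In naive replicate 3, Col2a1 was at 5053 CPM (next 3216), Pth1r at 68.0 (50.9), and the summed chondrocyte markers at 8026 CPM (5422). In naive replicate 4, Loxl2 was at 116 CPM (78.8) and Fyn was lowest at 31.7 CPM (37.0). Naive replicate 2 had the largest share of counts on short transcripts, 19.7% (next 17.45%).

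The injured libraries of day 7 and day 1 differed beyond an FDR of 0.05 by edgeR for the genes of the study's text and for Mmp14 and Col1a1, among others. The study named its genes from their response at day 7. The log2 difference, day 7 minus day 1, was 4.19 for Postn, 3.31 for Gdf5, 2.93 for Matn2, 2.67 for Loxl2, 2.44 for Sulf2, 2.21 for Htra1, 1.42 for Adamts7, 1.39 for Sox9, 1.18 for Atf3, 1.16 for Acvr1 and 0.48 for Fyn. It was 2.56 for Mmp14 and 1.85 for Col1a1.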

How the results depend on the processing

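The count of genes called higher was 0 under all 20 alternatives. The count called lower was 0 except for 15 by DESeq2 and 1 by limma-voom with quality weights; at an FDR of 0.2 with no fold limit it was 2. With no filter on low counts, 606 genes were higher at an unadjusted p of 0.05 and 65 small non-coding genes lower. With quality weights the numbers were 697 higher and 948 lower. In all 18 libraries, 338 genes were lower, of them 29 ribosomal protein, 32 histone and 25 small non-coding genes. Leaving out 1 library gave 236 to 657 higher and 275 to 938 lower genes, 19 to 58 ribosomal protein, 21 to 58 histone and 15 to 45 small non-coding genes; the lowest values were all without injured replicate 3 and the highest totals without injured replicate 2. Leaving out injured replicate 2 and naive replicate 5 together, chosen after seeing the data, left 46 small non-coding genes lower. The cause of these shifts was not tested.

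Of the 69 genes followed through the alternatives, 13 had a reversed sign in some alternative. With quality weights the log2 fold change was -0.050 for Fyn, 0.063 for Sox9, 0.047 for C3 and 0.061 for Col2a1. Without injured replicate 2 and naive replicate 5 it was 0.01 for C3 and 0.10 for Col2a1, and with pseudogene counts added -0.28 for Rpl10. Leaving out 1 library, it ran from -0.15 to 0.46 for Postn, -0.031 to 0.35 for Htra1, -0.065 to 0.12 for Fyn, -0.12 to 0.064 for Sox9, -1.12 to 3.68 for Cxcl1, -0.41 to 0.067 for C3, -0.17 to 0.14 for Col2a1, -0.12 to 0.40 for Col1a1, -0.97 to 1.996 for Timp1, -0.61 to 2.54 for Tnfaip6, -1.09 to 2.70 for Ccl2 and -0.83 to 1.89 for Il6. The principal component tests kept their side of the threshold in every alternative run. No paired analysis was possible because the labels give no pairing and replicate numbers follow accession order. Depth limits genes of low level most.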
